A study of Mus musculus with 14 samples.

Results

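Hnf4a, Foxa1, Foxa2, Foxa3, Onecut1, Prox1 and Tbx3 encode 7 transcription factors that hepatocytes use to set up and hold their identity. They were taken by gene symbol from the expression tables of 14 mouse livers, where they are 7 of 17656 listed genes. The livers came from C57BL/6 mice of 8 weeks, 1 RNA-seq library per mouse, in 4 groups that cross genotype with treatment. The wild-type (WT) groups were 3 mice given saline and 4 given concanavalin A (ConA), a plant lectin that activates T cells and causes an acute immune hepatitis. The knockout (KO) groups were 3 saline mice and 4 ConA mice labelled Ythdf1-/-, in which CRISPR/Cas9 removed exon 3 of Ythdf1, a cytoplasmic reader of the RNA mark N6-methyladenosine, from every cell of the body. ConA was injected at 8 mg/kg into the tail vein and all livers were taken at 8 h, so the libraries show whole tissue in the acute phase. All groups share the strain and the sampling time, and the samples differ only in genotype and in ConA as far as the labels tell. The comparisons ask what ConA did to the factors in each genotype, what the knockout did to them in the resting and in the injured liver, and whether the response to ConA differed between genotypes.

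Hepatocyte identity rests on a small group of factors that bind each other's genes and the genes of liver function. HNF4A, a nuclear receptor, drives genes of bile acid, lipid and glucose metabolism and of clotting. FOXA1, FOXA2 and FOXA3 are forkhead proteins; FOXA1 and FOXA2 open closed chromatin at liver enhancers in the embryo, and FOXA3 is the third member of the family in the adult liver. ONECUT1 (HNF6) acts with them in hepatocytes and bile duct cells, PROX1 is a homeodomain factor of hepatocytes and of lymphatic endothelium, and TBX3 is a T-box factor that follows Wnt signals and is known from hepatocytes around the central vein.

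Values are TPM, which are corrected for gene length and sum to 1000000 in each library, so that levels of different genes can be set side by side within a library. Tests used limma on log2(TPM + 1). Genes whose p, adjusted by Benjamini-Hochberg over all tested genes, fell under 0.05 count as called. On this scale the changes of genes with few TPM are understated, which applies most to Onecut1 and Foxa1. TPM holds no read numbers, so error was measured by how far the mice of a group lay apart, not by counting. Ythdf1 itself lay at 12.03 to 13.9 TPM in WT saline and, higher and without overlap, at 18.4 to 20.8 in KO saline livers. After ConA it lay at 18.7 to 25.6 TPM in WT and 15.5 to 26.2 in KO livers. The value of the whole gene includes the exons that the deletion leaves, so it does not check the genotype labels. Why it was higher in KO saline livers was not tested.

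The libraries were liver-like in all groups, and some of them stood apart. Of 9 hepatocyte markers none was at 0, and their summed level was 120458 to 139217 TPM with saline and 61454 to 85671 with ConA in WT livers, and 112519 to 131696 with saline and 56341 to 68509 with ConA in KO livers. In bulk tissue, fewer hepatocytes and less of an RNA per hepatocyte cannot be told apart. The 13 leukocyte markers summed to 29.8 to 100.1 TPM in the saline livers and to 321 to 946 in the ConA livers, most of it from the neutrophil genes S100a8 and S100a9, which reached 133.85 to 253 and 156 to 265 TPM in WT ConA livers from 4.23 or less with saline. Of the 9 leukocyte markers tested in WT livers 4 were higher and 2 lower, among them Clec4f, a Kupffer cell gene, which fell from 25.6 to 40.8 TPM to 1.07 to 7.98. In WT ConA against WT saline 22.0% of all tested genes were higher and 31.0% lower. The T cell genes Cd3e and Cd4 stayed under 1 TPM. WT saline replicates 2 and 3 were more alike than any other pair of replicates (median size of the log2 ratio 0.0704 against 0.121 to 0.394), and the 2 ConA libraries numbered 3 lay far from the rest of their groups, with a median log2 ratio of 0.236 to 0.394 against 0.121 to 0.200 among the other ConA pairs. The changes of the factors that move with these libraries are given with and without them, and so are the counts of gene lists between saline livers.

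The order of the factors was fixed at the top and loose below. Hnf4a was the highest and Foxa3 the next in 14 of 14 libraries. In WT saline the medians were 163 TPM for Hnf4a, 40.3 for Foxa3, 21.2 for Prox1, 19.8 for Foxa2, 13.3 for Tbx3, 6.36 for Foxa1 and 1.13 for Onecut1. Only Prox1 and Foxa2 overlapped as neighbours there. In KO saline the same pair overlapped, as did Tbx3 and Foxa1. After ConA every neighbouring pair from Prox1 downward overlapped in the KO group, and in the WT group all but Tbx3 and Foxa1 did. Across the 14 libraries Hnf4a ranked between 485 and 851 among the 17656 genes by TPM, Foxa3 between 865 and 3758, and Onecut1 between 7643 and 10567.

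**Figure D1:**
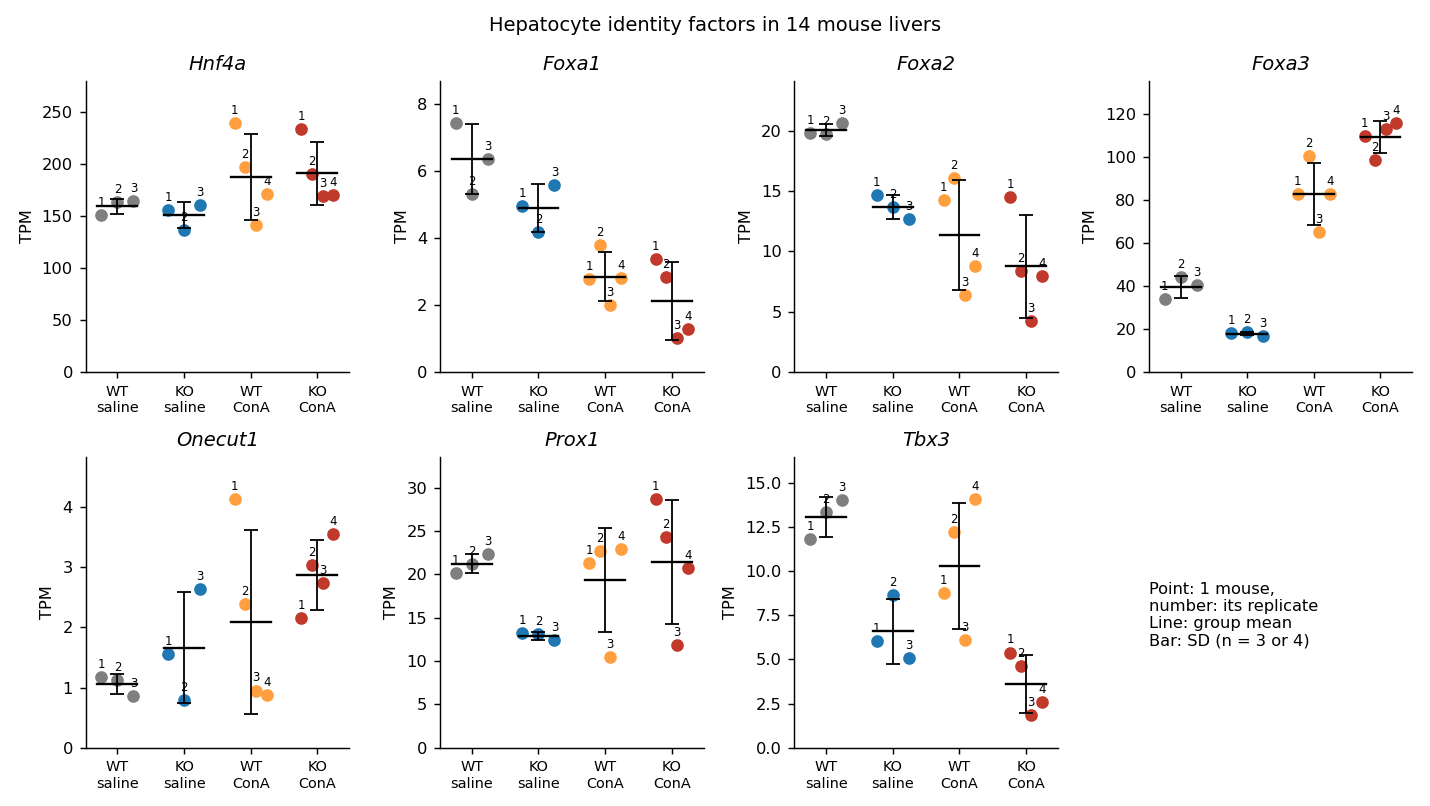
TPM of each factor (vertical axis, from 0) in the 4 groups; each point is 1 mouse with its replicate number, the line is the group mean and the bar the SD (n = 3 saline, n = 4 ConA). Foxa3 falls from 33.8 to 44.1 TPM in WT saline to 16.9 to 18.5 in KO saline and lies at 65.1 or more in all 8 ConA livers, while Foxa1 lies at 3.80 or less there.

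The start regions of the 3 FOXA genes are shown because Foxa3 rose and Foxa1 fell with ConA in both genotypes. Foxa3 lies at chr7:19013283-19023539 (minus strand, 2 exons in its longest coding transcript), Foxa2 at chr2:148042877-148046969 (minus strand, 3 exons) and Foxa1 at chr12:57540628-57548029 (minus strand, 2 exons), all in GRCm38.p6 as RefSeq gives it. The 250 bases before a RefSeq start site are printed 5′ to 3′ on the gene's strand, at chr7:19023540-19023789, chr2:148046970-148047219 and chr12:57546112-57546361; the Foxa1 window belongs to a start inside the gene's span and the Foxa2 window to the outermost of its 3 starts. Capitals mark matches to the searched letters.
Foxa3: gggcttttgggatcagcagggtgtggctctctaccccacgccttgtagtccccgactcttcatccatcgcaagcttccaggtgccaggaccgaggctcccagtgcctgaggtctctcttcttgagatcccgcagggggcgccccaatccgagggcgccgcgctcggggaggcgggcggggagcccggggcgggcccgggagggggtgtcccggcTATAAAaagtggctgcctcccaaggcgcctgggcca
Foxa2: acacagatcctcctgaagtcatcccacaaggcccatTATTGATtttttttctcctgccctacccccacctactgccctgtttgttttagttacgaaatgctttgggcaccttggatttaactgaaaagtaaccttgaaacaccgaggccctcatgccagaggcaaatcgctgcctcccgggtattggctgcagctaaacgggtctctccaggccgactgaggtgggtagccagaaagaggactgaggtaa
Foxa1: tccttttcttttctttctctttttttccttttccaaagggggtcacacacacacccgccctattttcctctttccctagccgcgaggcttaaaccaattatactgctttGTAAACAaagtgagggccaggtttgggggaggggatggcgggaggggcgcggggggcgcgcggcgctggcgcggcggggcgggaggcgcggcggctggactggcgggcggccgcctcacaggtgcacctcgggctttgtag

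The 3 windows differ in their letters. The Foxa1 window holds the FOXA letters TGTTTAC on the other strand, at positions -141 to -135 from the start, a string found in 3.17% of 32851 RefSeq windows of this length on either strand. The Foxa2 window holds the ONECUT letters ATCAATA on the other strand, at -214 to -208, found in 1.86% of windows. The Foxa3 window holds the TATA box letters TATAAA on the gene's own strand, at -36 to -31, found in 7.59% of windows on that strand; this string was searched after the sequences had been seen. Its GC content is 68.8%, above that of 89.0% of windows, against a median of 52.4%. The Foxa1 window is at 62% and the printed Foxa2 window at 50.8%. The windows of the other Foxa2 starts are at 67.2% and 54.4%. Of the other factors, the outer of 2 Hnf4a windows holds ATCAATA at -59 to -53, and the inner of 2 Prox1 windows holds the FOXA letters TGTTTGC (4.30% of windows) at -120 to -114. The Onecut1 window holds none of the strings. Searched on both strands with no match in any window of the factors were ATCGATA (ONECUT, 0.213% of windows), CAAAGTCC and CAAAGGTC (HNF4, 1.20% and 1.01%), GTTAATNAT (HNF1, 0.737%), TTGCGCAA and TTGCATCA (C/EBP, 0.164% and 0.791%), TTCCNGGAA (STAT, 0.913%) and GGGANTTTC (NF-kB, 0.941%). A match is a string of letters and not a shown binding site.

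ConA changed 3 of the 7 factors in WT livers and 5 in KO livers by the test. In WT ConA against WT saline 1 factor was higher and 2 were lower, where 53.0% of 10768 tested genes were called, 22.0% higher and 31.0% lower. In KO ConA against KO saline 3 were higher and 2 lower, where 64.6% of 10988 genes were called, 33.9% higher and 30.7% lower. Saline and ConA groups did not overlap for 58.0% of the tested genes in WT and 64.3% in KO livers. The factors' counts are thus near the background or below it. Foxa3 rose and Foxa1 fell in both genotypes. All 7 factors passed the filter on low values in every comparison.

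Foxa3 rose with ConA in both genotypes and from different starting levels. WT saline livers had 33.8, 44.1 and 40.3 TPM, and WT ConA livers 82.7, 100.4, 65.1 and 82.4. KO saline livers had 18.1, 18.5 and 16.9 TPM, and KO ConA livers 109.6, 98.5, 113 and 115. The saline and ConA groups do not overlap in either genotype, and the KO saline livers are the lowest of all 14. The mean was 2.10 times higher after ConA in WT livers (log2 fold change 1.04, SE 0.17, adjusted p = 6.71e-04) and 6.12 times higher in KO livers (2.55, SE 0.11, adjusted p = 2.49e-08).

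The difference between these responses of Foxa3 was itself tested. The interaction of genotype and ConA was 1.50 on the log2 scale (SE 0.20, 95% interval 1.08 to 1.92, adjusted p = 0.00222), with 4.78% of 11327 genes called, 2.64% with a higher and 2.14% with a lower response in KO livers. The other 6 factors were not called. The median interaction of all genes was 0.14 and fell to 0.03 when libraries were rescaled to their median ratio; Foxa3 stayed called, with 1.37 to 1.61 over all 22 alternatives and an adjusted p of 0.0162 at most. Without both ConA libraries numbered 3 the value was 1.38 (adjusted p = 0.00243).

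In the resting liver Foxa3 was lower in the knockout. The KO saline mean was 17.8 TPM ± 0.851 (SD, n = 3) against 39.4 ± 5.22 (SD, n = 3) in WT saline, a log2 difference of -1.09 (SE 0.11, adjusted p = 0.00418). The call held in all 14 alternatives for this comparison, with the largest adjusted p at 0.0445. After ConA the direction of the means was the opposite, at 109.1 TPM ± 7.50 in KO and 82.7 ± 14.4 in WT livers (SD, n = 4 each), and WT replicate 2 lay within the KO range. That difference was 0.41 (SE 0.14, 95% interval 0.09 to 0.73) and was not called (adjusted p = 0.192).

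Foxa1 was lower after ConA. The WT saline group had 7.43, 5.33 and 6.36 TPM and WT ConA livers 2.79, 3.80, 1.99 and 2.82. KO saline livers had 4.95, 4.17 and 5.59 TPM and KO ConA livers 3.39, 2.84, 1.01 and 1.29. The saline and ConA groups do not overlap in either genotype, and the 2 lowest values are KO ConA livers. Foxa1 fell by 0.95 on the log2 scale in WT livers (SE 0.19, adjusted p = 0.00228) and by 0.98 in KO livers (SE 0.27, adjusted p = 0.0078), where its mean was 0.447 and 0.435 times that of saline. Both calls held under every alternative that tested the gene. The interaction was -0.04 (SE 0.35, 95% interval -0.79 to 0.71), an interval that leaves room for a sizeable difference either way.

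Foxa2 was lower after ConA in WT livers, with more spread, and was not called in KO livers. It stood in WT saline livers at 19.8, 19.8 and 20.6 TPM and WT ConA livers 14.3, 16.1, 6.35 and 8.78. KO saline livers had 14.7, 13.7 and 12.7 TPM and KO ConA livers 14.5, 8.41, 4.21 and 7.93. The WT groups do not overlap, while KO ConA replicate 1 lies among the KO saline livers and both libraries numbered 3 are the lowest of their groups. Foxa2 fell by 0.85 in WT livers (SE 0.27, adjusted p = 0.026), a call lost without any 1 of the WT saline libraries (adjusted p 0.0672 to 0.0761) or without WT ConA replicate 4 (0.062). In KO livers the difference was -0.69 (SE 0.29, adjusted p = 0.0577), not called. With 1 library left out it ran from -0.42 without KO ConA replicate 3 (adjusted p = 0.0902) to -0.95 without KO ConA replicate 1 (adjusted p = 0.00426), the 1 such case in which it was called. In resting livers Foxa2 was lower in the knockout by 0.52 (SE 0.08, adjusted p = 0.0155), with no overlap, as holds for 42.3% of tested genes. That call was lost without WT saline replicate 2 (0.0814) or WT saline replicate 3 (0.0924).

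Seen as a family, the FOXA transcripts shifted toward Foxa3. Foxa3 made up 55.3 to 63.7% of the summed FOXA TPM in WT livers given saline and 82.9 to 88.6% in those given ConA. In KO livers it made up 48.0 to 50.9% with saline and 86.0 to 95.6% with ConA. The share of Foxa2 was 28.5 to 32.5% in WT saline and 36.1 to 38.8% in KO saline, against 3.56 to 14.3% over all ConA livers. The sum of the 3 genes was 61.0 to 69.2 TPM with saline and 73.5 to 120.3 with ConA in WT livers, and 35.2 to 37.8 with saline and 109.7 to 127.5 with ConA in KO livers. These shares restate the 3 levels and were not tested.

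**Figure D2:**
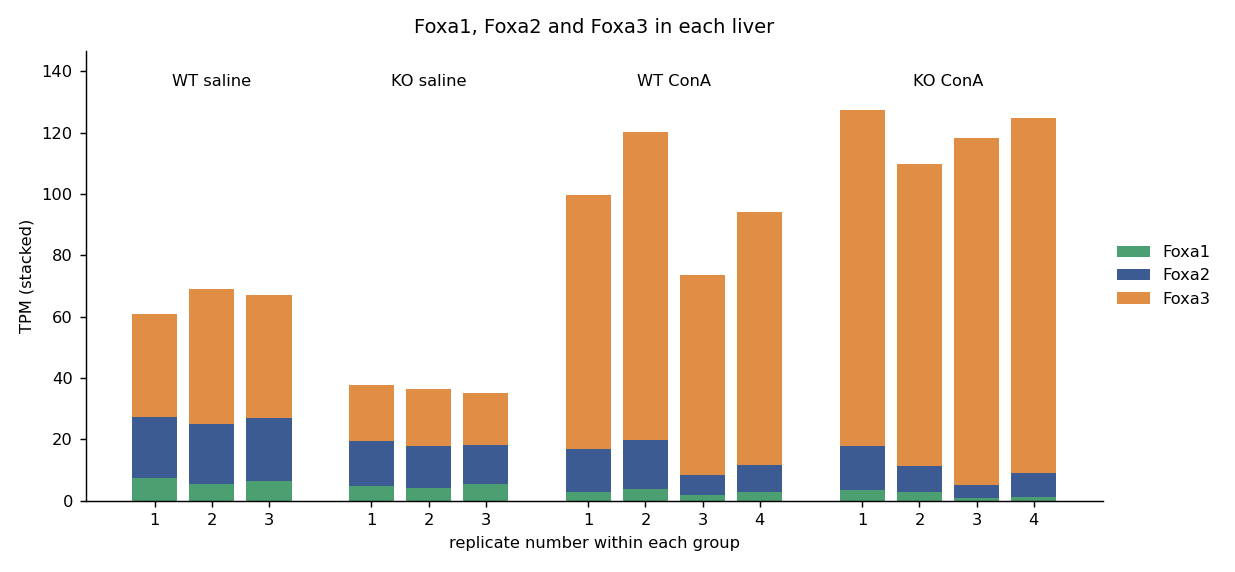
Stacked TPM (vertical axis, from 0) of Foxa1, Foxa2 and Foxa3 in each of the 14 livers, by group and replicate number. The bars reach 61.0 to 69.2 TPM in WT saline and 35.2 to 37.8 in KO saline livers, and Foxa3 takes 82.9% or more of each ConA bar.

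Hnf4a kept a high level in all groups. WT saline livers had 151, 163 and 164 TPM and WT ConA livers 239, 197, 141 and 171. KO saline livers had 156, 136 and 160.4 TPM and KO ConA livers 233, 190.4, 169 and 169.8. In both ConA groups replicate 1 is the highest, the WT groups overlap, and the KO ConA livers all lie above the KO saline livers. The difference after ConA was 0.21 in WT livers (SE 0.17, 95% interval -0.19 to 0.60, adjusted p = 0.347) and 0.33 in KO livers (SE 0.14, 95% interval 0.03 to 0.63, adjusted p = 0.0539), neither called. Leaving out WT ConA replicate 1 took the WT value to 0.08 (adjusted p = 0.697), and leaving out replicate 3 took it to 0.33 (0.0581). The KO value ran from 0.23 without KO ConA replicate 1 (0.138) to 0.38 without KO ConA replicate 3 (0.0322) or without replicate 4 (0.049), and it was called in these last cases. Between genotypes the means differed by -0.08 in saline livers (95% interval -0.30 to 0.14) and by 0.04 after ConA (95% interval -0.34 to 0.42). Hnf4a (chr2:163506811-163572907, plus strand) overlaps an antisense gene, Hnf4aos, in the GENCODE vM21 annotation, and no source used here states whether reads were assigned by strand.

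Onecut1 was the factor with the lowest median in 3 of the 4 groups, and in KO ConA livers Foxa1 lay below it (median 2.07 against 2.89 TPM). In WT saline livers it had 1.18, 1.13 and 0.86 TPM and WT ConA livers 4.13, 2.39, 0.95 and 0.88. KO saline livers had 1.55, 0.80 and 2.63 TPM and KO ConA livers 2.16, 3.03, 2.74 and 3.55. The groups overlap in both genotypes. The call in KO livers (0.59 higher after ConA, SE 0.23, adjusted p = 0.0455) was lost without KO saline replicate 1 (adjusted p = 0.104), KO saline replicate 2 (0.233), KO ConA replicate 2 (0.0838), KO ConA replicate 3 (0.0596) or KO ConA replicate 4 (0.102). With 1 library left out the KO value ran from 0.33 without KO saline replicate 2 to 0.84 without KO saline replicate 3. In WT livers the difference was 0.46 (SE 0.33, adjusted p = 0.263) and became 0.18 when WT ConA replicate 1 was left out (0.573) and 0.66 when replicate 4 was (0.118). Only 45.6% of the 50-base stretches of its longest coding transcript occur in no other gene, because a long noncoding RNA, Gm20649, shares nearly all the rest, whereas the other 6 factors are at 100%. Gm20649 is not listed by that symbol among the 17656 genes. How reads of the stretches it shares with Onecut1 (chr9:74861921-74889648) were assigned therefore cannot be told.

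Prox1 was lower in the resting knockout liver. Its WT saline values were 20.1, 21.1 and 22.3 TPM and KO saline livers 13.2, 13.1 and 12.4. WT ConA livers had 21.3, 22.7, 10.5 and 23.0 TPM and KO ConA livers 28.7, 24.3, 11.8 and 20.7. The saline groups do not overlap, as holds for 42.3% of tested genes, and after ConA the library numbered 3 is by far the lowest in either genotype. The saline difference was -0.67 (SE 0.08, adjusted p = 0.00743), a call lost without WT saline replicate 2 (0.0618) or WT saline replicate 3 (0.0675). With ConA Prox1 rose by 0.62 in KO livers (SE 0.24, adjusted p = 0.0432), from a lower start, and differed by -0.18 in WT livers (SE 0.25, adjusted p = 0.568).

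The libraries numbered 3 weighed on Prox1. Without them the ConA difference in KO livers was 0.87 (SE 0.13, adjusted p = 3.65e-04), that in WT livers was 0.07 (SE 0.09, adjusted p = 0.491), and the interaction was 0.79 (SE 0.15, adjusted p = 0.0112) where it was 0.81 (SE 0.38, adjusted p = 0.203) with them. The call in KO livers was in turn lost without any 1 of the 3 KO saline libraries (adjusted p 0.086 to 0.112), without KO ConA replicate 1 (0.104), KO ConA replicate 2 (0.097) or KO ConA replicate 4 (0.0749). Prox1 (chr1:190118035-190170827, minus strand) is also made by lymphatic endothelium and overlaps the antisense genes Prox1os and Gm28172. The 10 endothelial markers summed to 19.8 to 35.8 TPM with saline and 18.5 to 42.8 with ConA in WT livers. In KO livers these sums were 40.4 to 70.2 with saline and 22.7 to 57.7 with ConA. The markers did not move together with ConA. Lyve1 rose by 1.51 in WT and 1.98 in KO livers, while Clec4g fell by 1.69 and 2.52. Of 9 tested in WT livers 3 were higher and 2 lower, and of 10 in KO livers 3 were higher and 5 lower. Over all genes 53.0% and 64.6% were called. The part of endothelial cells in the Prox1 values was not tested.

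Tbx3 stood lower in the knockout in both conditions, past the test in saline livers alone. WT saline livers had 11.8, 13.3 and 14.02 TPM and KO saline livers 6.05, 8.63 and 5.06. WT ConA livers had 8.75, 12.2, 6.10 and 14.1 TPM and KO ConA livers 5.39, 4.6, 1.87 and 2.59. The genotypes do not overlap in saline livers, as holds for 42.3% of tested genes, or after ConA, as holds for 10.5%. The difference was -0.91 in saline livers (SE 0.17, adjusted p = 0.0199), lost without WT saline replicate 2 (adjusted p = 0.0917), WT saline replicate 3 (0.0993) or KO saline replicate 1 (0.0608). After ConA it was -1.31 (SE 0.30, 95% interval -1.97 to -0.64, unadjusted p = 0.0012, adjusted p = 0.0703 by limma), with the KO mean 0.351 times that of WT.

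By the test Tbx3 therefore passed in the resting liver and just missed in the injured one, and the interaction, -0.39 (SE 0.41, adjusted p = 0.56), gave no call of a difference between them. After ConA Tbx3 fell by 0.76 in KO livers (SE 0.28, adjusted p = 0.0344), with KO ConA replicate 1 inside the KO saline range, and that call was lost without KO saline replicate 1 (0.0685), KO saline replicate 2 (0.142), KO ConA replicate 3 (0.066) or KO ConA replicate 4 (0.0808). In WT livers the difference was -0.37 (SE 0.25, adjusted p = 0.234) and -0.17 (0.403) without WT ConA replicate 3. Tbx3 lies at chr5:119670534-119684724 (plus strand) and overlaps the antisense gene Tbx3os1.

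Between genotypes, 4 of the 7 factors were lower in KO than in WT saline livers (Foxa2, Foxa3, Prox1 and Tbx3) and none was higher. Of 10459 tested genes 19.2% were called, 12.9% lower and 6.30% higher, and 42.3% did not overlap between the groups. By limma 4056 of the 10459 genes had an unadjusted p under 0.05. With rescaled libraries 771 genes were lower and 744 higher in place of 1350 and 659, and the same number of factors, 4, was lower. Only Foxa3 kept its call when WT saline replicates 2 and 3 were averaged into 1, and also without replicate 2 or without replicate 3; the adjusted p of Foxa2, Prox1 and Tbx3 was then 0.0618 to 0.0993. Beside these calls, the marker sums of bile duct and stellate cells had higher medians in KO saline livers. The leukocyte medians were 65.7 TPM in KO and 65.0 in WT saline. The 8 bile duct markers summed to 89.7 to 96.2 TPM against 53.5 to 63.3 in WT saline, and the 9 stellate markers to 64.6 to 108 against 17.0 to 69.1, with no marker at 0 throughout a group. WT saline replicate 1 gave the stellate sum of 69.1, and replicates 2 and 3 lay at 17.0 and 18.9 TPM. By the test 2 of 5 bile duct and 3 of 8 stellate markers were higher in KO saline livers and 0 were lower. With WT saline replicates 2 and 3 averaged 0 of either list were called, where 49 of 10675 genes were. After ConA the bile duct sums were 21.3 to 34.8 TPM in WT and 39.8 to 58.5 in KO livers, and the stellate sums 23.0 to 64.3 and 52.7 to 105. Spp1 made up most of the bile duct sum, at 41.1 to 53.1 TPM in WT saline and 10.7 to 23.1 in WT ConA livers, so the sum mainly follows that gene. Of the 6 bile duct markers tested in WT ConA against WT saline, Krt7, Krt19 and Sox9 were higher and 2 were lower (median 0.21). In that comparison 22.0% of all tested genes were higher and 31.0% lower. The stellate sum mainly follows Dcn, at 47.9 to 83.5 TPM in KO saline and 47.4 to 92.7 in KO ConA livers. Of the 8 stellate markers tested in KO ConA against KO saline, 0 were higher and 4 lower (median -0.53). Over all genes 33.9% were higher and 30.7% lower there. The part of these cells in the values of the factors was not tested.

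After ConA 0 of the 7 factors differed between genotypes by limma, where 0.428% of 10519 genes were called, 0.342% higher and 0.0856% lower, and 1753 genes had an unadjusted p under 0.05. Among these were Foxa3 and Tbx3 of the 7. Rescaled libraries gave 13 genes lower and 12 higher in place of 9 and 36. Tbx3 was called with rescaled libraries (-1.38, adjusted p = 0.0365) and with all 14 libraries in the fit (adjusted p = 0.0118). The comparisons share groups: each group serves in 2 of the 4 and in the interaction, so the values of a factor side by side are not independent.

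**Figure D3:**
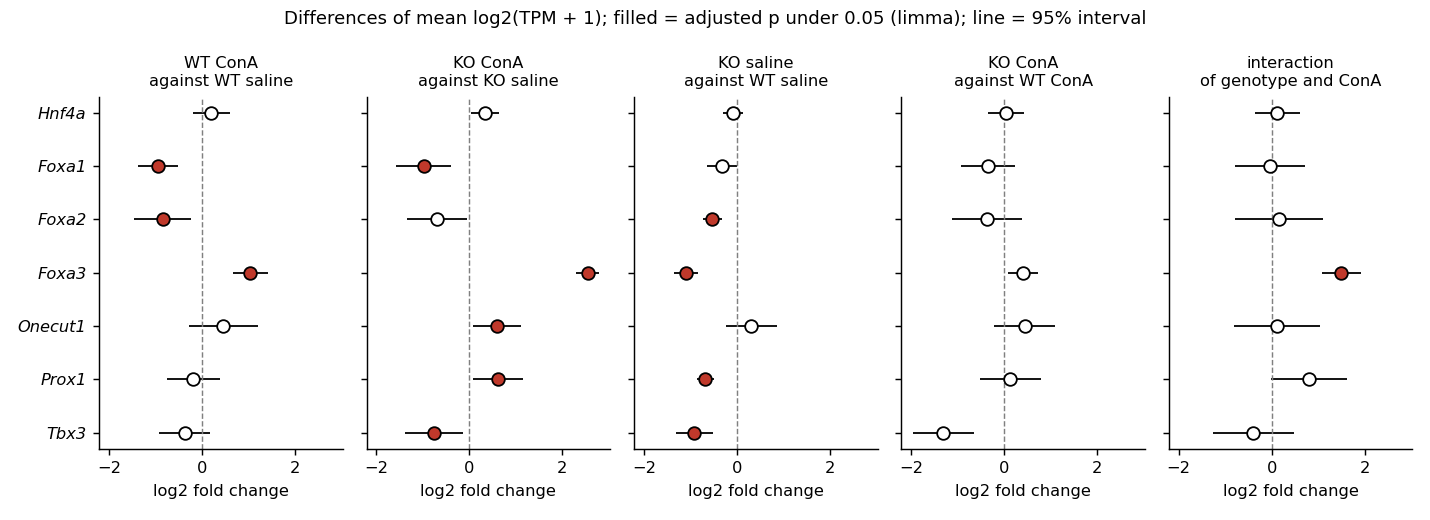
Log2 fold change (horizontal axis, difference of mean log2(TPM + 1)) of each factor in the 4 group comparisons and the interaction; lines are 95% intervals, and filled points were called by limma. Foxa3 stands at 1.04 and 2.55 in the ConA comparisons, at -1.09 between saline livers and at 1.50 in the interaction.

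Other genes of the forkhead, ONECUT, PROX and T-box families were mostly too low to test, and too few were tested to read a share. Of 6 tested relatives of 14 listed, 0 were higher and 2 lower in WT ConA against WT saline, where 53.0% of all genes were called, with a median of -0.16 against -0.07 for all genes. Foxq1, a forkhead gene, was at 10.3 to 16.7 TPM in WT saline and 2.18 to 5.32 in WT ConA livers (log2 fold change -1.56, SE 0.28, adjusted p = 0.00121). Foxp1 was at 2.64 to 2.89 and 1.01 to 1.89 TPM (-0.53, SE 0.16, adjusted p = 0.0201). Foxp1 was not called when WT saline replicates 2 and 3 were averaged (adjusted p = 0.0635). In KO ConA against KO saline 2 of 6 were higher and 1 lower, where 64.6% of all genes were called, and 4 were higher and 1 lower without KO ConA replicate 3. Between saline livers 0 of 7 were higher and 1 lower, where 6.30% and 12.9% of all genes were. When that pair was averaged 0 of 8 were called by limma, where 49 of 10675 genes were. In that fit 2 had an unadjusted p under 0.05, a count not taken over all genes.

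Most of the other liver-enriched transcription factors fell with ConA in both genotypes. Of 21 tested, 1 was higher and 13 lower in WT ConA against WT saline (median -0.98, all genes -0.07), and 3 were higher and 12 lower in KO ConA against KO saline (median -0.74, all genes 0.07). The shares over all genes were 22.0% higher and 31.0% lower in WT, and 33.9% and 30.7% in KO livers. Nr1i3, the xenobiotic receptor CAR, went from 195 to 196 TPM in WT saline to 4.81 to 6.28 in WT ConA (log2 fold change -4.95, SE 0.13, adjusted p = 3.38e-08) and from 100.1 to 126 to 3.25 to 5.02 TPM in the KO groups. Nr0b2, the bile acid-induced repressor SHP, fell by 2.65 (SE 0.37), Hhex, a homeobox gene of liver development, by 1.97 (SE 0.34) and Nr2f2, an orphan nuclear receptor, by 1.85 (SE 0.27), with adjusted p of 3.00e-04, 0.00102 and 3.68e-04. Gata6, the 1 gene that rose in WT livers, gained 0.85 (SE 0.21, adjusted p = 0.0069). None of the 21 was called in the interaction or between genotypes after ConA, and without both ConA libraries numbered 3 Zhx2 was called in the interaction (0.87, adjusted p = 0.0172). In saline livers 6 of 20 were lower in the knockout and 0 were higher, where 12.9% and 6.30% of all genes were. Nr1i3 was among the lower ones at -0.78 (SE 0.10, adjusted p = 0.0105). With WT saline replicates 2 and 3 averaged 0 of the 20 were called by limma, where 49 of 10675 genes were. In that fit 6 had an unadjusted p under 0.05, a count not taken over all genes, with Nr1i3 at -0.78 (adjusted p = 0.0711).

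Most genes known to depend on HNF4A fell with ConA, while Hnf4a itself was not called. Of 21 tested, 0 were higher and 15 lower in WT ConA against WT saline (median -0.92), and 3 were higher and 18 lower in the KO groups (median -1.15). Of all tested genes 22.0% were higher and 31.0% lower in WT, and 33.9% and 30.7% in KO livers. Cyp7a1, the rate-limiting enzyme of bile acid synthesis, was at 66.8 to 72.5 TPM in WT saline and 0.02 to 0.34 in WT ConA livers (log2 fold change -5.95, SE 0.14, adjusted p = 3.16e-08). Cyp8b1, which sets the share of cholic acid, fell by 4.90 (SE 0.22, adjusted p = 5.05e-07), and G6pc, the last enzyme of glucose release, fell by 3.97 (SE 0.41, adjusted p = 5.21e-05). Slc10a1, the bile acid uptake carrier, fell by 3.12 (SE 0.16, adjusted p = 1.07e-06). In KO ConA livers Cyp7a1 was at 0.06 to 0.12 TPM, from 17.7 to 26.3 in KO saline. Between saline livers 4 of the 21 were higher and 3 lower in the knockout (median 0.03, all genes -0.10), where 6.30% and 12.9% of all genes were. With WT saline replicates 2 and 3 averaged 1 of the 21 was called, Cyp7a1 at -1.64 (SE 0.17, adjusted p = 0.0154). Cyp7a1 was called in the interaction (1.59, SE 0.20, adjusted p = 0.00203), with the ConA groups of both genotypes at 0.34 TPM or less.

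Genes with FOXA-bound control regions split. Of 7 tested, 2 were higher and 5 lower with ConA in each genotype (median -0.92 in WT, -0.98 in KO). Of all tested genes 22.0% were higher and 31.0% lower in WT, and 33.9% and 30.7% in KO livers. The list of FOXA-bound genes is not separate from that of HNF4A-dependent genes, since G6pc, Pck1 and Ttr are in both. The WT median of both lists is the value of Ttr. Igfbp1, an insulin-like growth factor binding protein made by hepatocytes, went from 53.5 to 84.4 TPM in WT saline to 536 to 1126 after ConA. In KO livers it went from 17.95 to 35.4 TPM with saline to 1220.4 to 2729 after ConA. Its log2 fold change was 3.34 in WT (SE 0.28, adjusted p = 1.41e-05) and 6.12 in KO livers (SE 0.29, adjusted p = 4.78e-08), and the interaction was 2.78 (SE 0.46, adjusted p = 0.0114). Between saline livers Igfbp1 was lower in the knockout (-1.41, SE 0.27, adjusted p = 0.0207), a call lost when WT saline replicates 2 and 3 were averaged (-1.31, adjusted p = 0.0956); the interaction was then 2.68 (adjusted p = 0.0459). Pck1, the gatekeeper of gluconeogenesis, fell by 2.21 (SE 0.21) and Cps1, the first enzyme of the urea cycle, by 1.27 (SE 0.32) in WT livers.

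Most zonation genes fell with ConA, around the central vein and around the portal vein. Of 17 pericentral and Wnt target genes 1 was higher and 15 lower in WT ConA against WT saline (median -1.16), and of 15 tested in the KO groups 2 were higher and 11 lower (median -0.74). The shares over all genes with ConA were 22.0% higher and 31.0% lower in WT, and 33.9% and 30.7% in KO livers. Notum, a Wnt-induced Wnt inhibitor, fell by 3.36 (SE 0.13), Cyp2e1, an ethanol oxidase, by 1.91 (SE 0.17), Cyp1a2, an oxidase of aromatic compounds, by 1.79 (SE 0.12) and Nkd1, a Wnt feedback gene, by 1.70 (SE 0.12) in WT livers. Of 15 periportal genes 0 were higher and 11 lower in WT and 12 lower in KO livers (medians -1.27 and -1.39), Etnppl by 3.95 (SE 0.19) and Hal, which breaks down histidine, by 2.34 (SE 0.34) in WT livers. In saline livers 5 of 17 pericentral genes were lower and 0 higher in the knockout (median -0.36). The other 12 were not called, Glul, Notum and Cyp1a2 among them. Of 15 periportal genes 2 were higher and 1 lower (median 0.15). Over all genes 12.9% were lower and 6.30% higher (median -0.10). Cyp2e1 was one of the 5 lower pericentral genes, at 7564 to 9759 TPM in WT saline and 4005 to 6115 in KO saline livers (-0.82, SE 0.18, adjusted p = 0.0267). With WT saline replicates 2 and 3 averaged 0 of the 17 pericentral and 0 of the 15 periportal genes were called by limma. In that fit 49 of 10675 genes were called, and Cyp2e1 was at -0.76 (adjusted p = 0.114). An unadjusted p under 0.05 was found for 5 pericentral and 3 periportal genes, a count not taken over all genes.

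**Figure D4:**
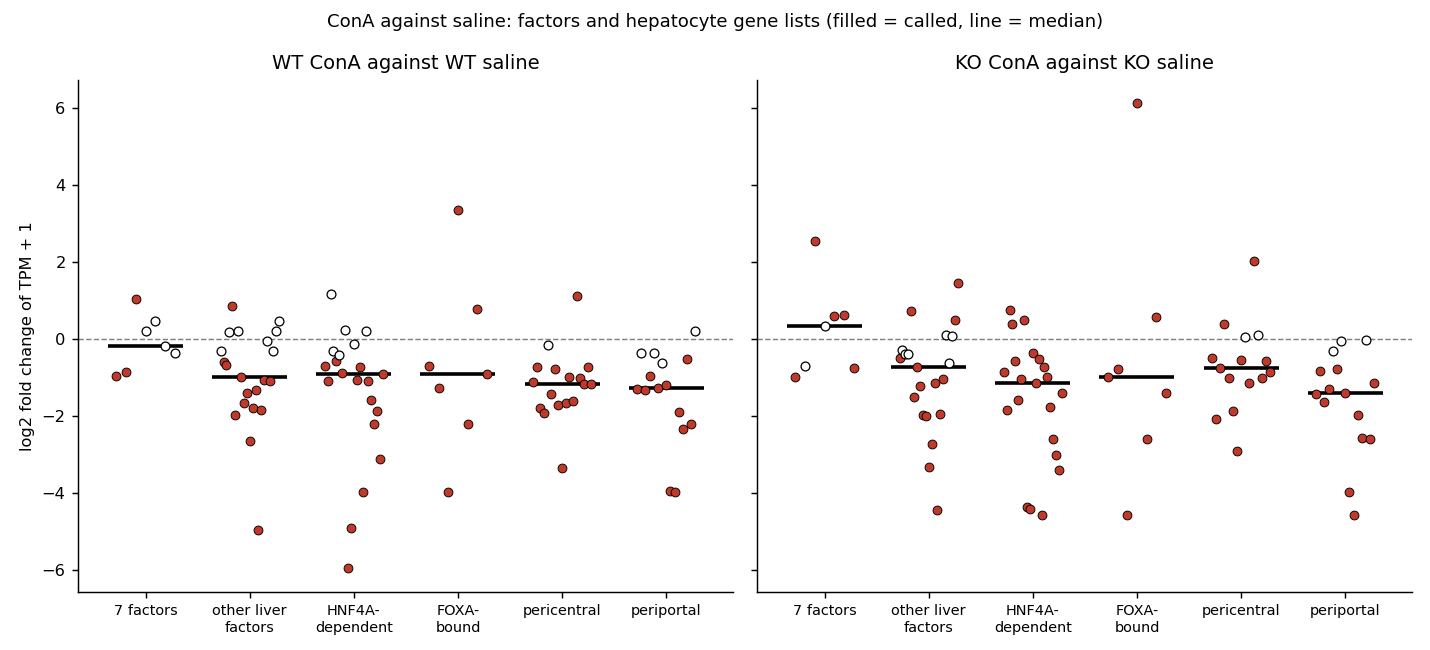
Log2 fold change of TPM + 1 (vertical axis) with ConA in WT (left) and KO (right) livers for the 7 factors and 5 hepatocyte gene lists; each point is 1 tested gene, filled when called, and the line is the list's median. The medians of the 5 lists lie between -0.92 and -1.27 in WT livers, and that of the 7 factors at -0.18. The lists share genes, so their medians are not separate results. G6pc and Pck1 are in the HNF4A, FOXA and periportal lists, and Ttr is in the HNF4A and FOXA lists.

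The genes most like each factor over the 14 libraries were named by Pearson r of log2(TPM + 1) among 11327 genes, as a description, since mice of a group share genotype and treatment. Foxa3 was followed most closely by Cd47 (r = 0.985) and Ints12 (0.984), with 0.683 and 0.646 for the deviations from the group means. Cd47, a surface signal that checks phagocytes, was at 24.5 to 28.4 TPM with saline and 34.2 to 50.3 with ConA in WT livers and at 15.4 to 17.6 with saline and 47.9 to 52.0 with ConA in KO livers, and like Foxa3 it was lowest in KO saline livers. Foxa1 was most like Styx (0.980) and Usp10 (0.975), Foxa2 like Srgap2 (0.960) and Ppp2r5e (0.952), and Hnf4a like Pa2g4 (0.923) and Mars1 (0.918). Prox1 was most like Atp2b1 (0.979) and Ddx17 (0.971), with 0.989 and 0.977 for the deviations, to which the ConA libraries numbered 3 contribute, where Prox1 is lowest. Tbx3 was most like Baiap2l1 (0.924) and Araf (0.907), and Onecut1 like 9530068E07Rik (0.942) and Srp54b (0.896). For Foxa1, Foxa2 and Hnf4a the deviations gave an r of 0.883 (Hnf4a and Mars1) to 0.963 (Foxa1 and Usp10), and for Tbx3 and Onecut1 one of 0.757 (Tbx3 and Araf) to 0.901 (Onecut1 and 9530068E07Rik).

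Among the factors themselves, deviations from the group means ran together in several pairs over the 14 libraries. The r was 0.863 for Foxa2 and Prox1, 0.855 for Prox1 and Tbx3, and 0.810 for Hnf4a and Foxa2, while it was 0.005 for Foxa1 and Foxa3 and -0.276 for Onecut1 and Tbx3. The 2 ConA libraries numbered 3, lowest in their groups for Hnf4a, Foxa1, Foxa2, Prox1 and Tbx3, are among these points, and each of the 3 high pairs holds only genes for which they are lowest.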

How the data were processed

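Liver RNA of 14 mice was read from 1 end, 50 bases long, on a BGISEQ-500 instrument, and the authors deposited 1 table of TPM per mouse, each summing to 1000000 over 17656 genes. The submitters' processing notes name Bowtie2 (version not given in the sources used here), RSEM 1.3.1 and GRCm38.p6, whereas the study's methods name STAR, HTSeq and edgeR; which made the tables could not be settled. The number of reads is unknown.

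To be tested, a gene needed a TPM of 1 in as many libraries as the smaller of the compared groups holds, or 3 for the interaction. Linear models were fitted to log2(TPM + 1) in R 4.3.3 with limma 3.58.1 and moderated with a mean-variance trend, each comparison with its own libraries and the interaction with all 14. Calls were made at a Benjamini-Hochberg adjusted p of 0.05. The procedure was tested on simulated data. Named are the 7 factors, up to 4 called genes with the largest change in WT ConA against WT saline from each list of transcription factors and dependent genes, and the 2 genes most like each factor. Gata6 was named after its value was seen. The factors and lists were chosen with earlier results of these data known. Upstream windows and positions came from RefSeq (GRCm38.p6; 6 of the 7 factors had a window), transcripts from GENCODE vM21. Of the gene identifiers 17604 matched RefSeq. As alternatives, results were recomputed with 0.1 as pseudocount, with the filter at a TPM of 5 or left off, rescaled libraries, all 14 libraries in the fit, robust eBayes, a replicate block, WT saline replicates 2 and 3 averaged, and each library left out; leaving out both ConA libraries numbered 3 was chosen after seeing the data. Figures used Python 3.11.15 and matplotlib 3.10.9.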

Additional observations from a re-analysis of the deposited data

Results flagged for a closer look

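The response of Foxa3 to ConA differed between genotypes: the interaction in the fit with all 14 libraries was 1.50 on the log2 scale (adjusted p = 0.00222 by limma), with 8 of 8 ConA livers above every saline liver of either genotype. The Prox1 level of WT ConA replicate 3, at 10.46 TPM, was far below the other 3 livers of its group, which lay between 21.3 and 23.0 TPM. Of the 14 sets of 4 livers examined in this way, chance flags about 1 in 20.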

How the results depend on the processing

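No call changed direction. Of 574 fitted changes of the factors recomputed under alternatives, 519 stayed on their side of the threshold, 44 lost and 11 gained a call, and of 913 counts for the gene lists 746 stayed within 1.5 times and 167 did not. The calls of Foxa3 in both ConA comparisons, between saline livers and in the interaction, and of Foxa1 in both ConA comparisons, held under every alternative that tested the gene. In WT ConA against WT saline the number of called factors, 3, stayed within 1.5 times; leaving out 1 library gave 2 to 3, and Foxa2 also lost its call without a filter (adjusted p = 0.0762) and when WT saline replicates 2 and 3 were averaged (0.0721). In KO ConA against KO saline the 5 called factors became 3 with a filter at a TPM of 5, 2 with no filter, 3 with all 14 libraries in the fit, and 2 to 5 with 1 library left out (2 without KO saline replicate 1 or 2, 3 without KO ConA replicate 2 or 4). In KO saline against WT saline the 4 became 1 with all 14 libraries in the fit, 1 when that pair was averaged, and 1 to 4 with 1 library left out (1 without WT saline replicate 2 or 3). In KO ConA against WT ConA the 0 became 1 (Tbx3) with rescaled libraries, with all 14 libraries in the fit and with the replicate block. In the interaction the 1 became 2 (Foxa3 and Prox1) without both ConA libraries numbered 3. Counts over all genes moved more. Between saline livers 2009 genes became 584 with no filter, 332 with all 14 libraries in the fit, 49 when the pair was averaged, and 45 to 2739 with 1 library left out (45 without WT saline replicate 3, 51 without WT saline replicate 2, 286 without KO saline replicate 1, 640 without KO saline replicate 2). Between ConA livers 45 became 4 with no filter, 25 with rescaled libraries, 640 with all 14 libraries in the fit, 140 with the replicate block, and 5 to 52 with 1 library left out (16 or fewer without any but WT ConA replicate 1). In the interaction 541 became 328 with no filter, 358 with the replicate block, 28 with the averaged pair, 1591 without both ConA libraries numbered 3, and 23 to 769 with 1 library left out (23 to 54 without WT saline replicate 2 or 3 or KO saline replicate 1 or 2, 82 and 186 without KO ConA replicates 4 and 2). The causes of these shifts were not tested.

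Replicate numbers were not taken as pairs, and correlations of same-numbered deviations ran from -0.189 to 0.405. The highest were 0.405 for the ConA libraries numbered 3 and 0.342 for the saline libraries numbered 1, between genotypes. What same-numbered mice share beyond the number cannot be told from the labels. With the number as a block, Onecut1 was called in WT ConA against WT saline (adjusted p = 0.047), Foxa2 in KO ConA against KO saline (0.0234) and Tbx3 between ConA livers (0.0491), while Onecut1 lost its call in KO livers (0.0709). TPM without read numbers limits what can be said of Onecut1 and of Foxa1 after ConA, both a few TPM or less.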
